A study of Mus musculus with 22 samples.

Results

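The 10 genes described here mark or control the stem cells at the base of the intestinal crypt. They are Lgr5, Olfm4, Ascl2, Smoc2, Sox9, Axin2, Rnf43, Znrf3, Ephb2 and Ly6a, and they were taken by name and matched through their Ensembl identifiers, 10 of 54838 genes in the count table. All 10 passed the filter on low counts in every fit used below. RNA was sequenced from small intestine of female FVB/N mice of 8 to 14 weeks, kept in a conventional animal house. The glucocorticoid receptor was either wild type (GRWT) or bore a germline point mutation by which it dimerises less efficiently (GRDim), and the drinking water was plain or held 25 mM ZnSO4 over 7 days. Of the 22 libraries, 5 were from the GRWT water condition, 5 from GRWT zinc, 6 from GRDim water and 6 from GRDim zinc, and by label 12 were ileum and 10 were IEC, intestinal epithelial cells scraped from the gut. The point mutation cannot be read from gene counts, so the genotype labels were not checked. The zinc labels were checked with Mt1, a metallothionein that binds zinc, which lay between 29.4 and 152 CPM (counts scaled to a library total of 1000000) in the 11 water libraries and between 1213 and 2884 CPM in the 11 zinc libraries.

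The intestinal epithelium is renewed from stem cells that divide at the crypt base between the Paneth cells. Wnt ligands from Paneth cells and from the stroma, boosted by R-spondins, hold these cells in the stem state, while Bmp signals from the villus side drive differentiation. Lgr5 is a receptor for R-spondins, Ascl2 is the transcription factor that maintains stem cell identity, and Olfm4 and Smoc2 encode secreted proteins used as markers of the same cells. Axin2, Rnf43 and Znrf3 are induced by Wnt signalling and dampen it, Axin2 within the complex that degrades beta-catenin and Rnf43 and Znrf3 as ubiquitin ligases that remove Wnt receptors. Sox9 is a transcription factor of crypt progenitors and Paneth cells, and Ephb2 is a receptor tyrosine kinase whose level falls from the crypt base upwards and which keeps cells in position. Ly6a, also called Sca-1, is a surface protein that is low in the resting crypt, is found on T cells, endothelium and stromal cells, rises in regenerating epithelium and is induced by interferons.

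The libraries fell into 12 with much smooth-muscle RNA and 10 with little, and every comparison was therefore made within each of these classes. Myh11, the smooth-muscle myosin heavy chain, lay between 298 and 463 CPM in the muscle-rich and between 3.22 and 20.5 CPM in the muscle-poor libraries. This went against the labels, since 7 of the muscle-rich libraries were labelled IEC and 7 of the muscle-poor ones ileum. In the muscle-rich class, the 3 GRDim water libraries were all labelled IEC and the 3 GRDim zinc libraries all ileum, so that zinc and the label cannot be told apart in GRDim mice, and the GRWT conditions held 2 IEC and 1 ileum library each. In the muscle-poor class, the 3 GRDim zinc libraries were labelled IEC and all others ileum. GRWT zinc replicate 3, a muscle-poor library, stood apart from all others, with Fabp6, an ileal bile acid binding protein, at 11.7 CPM against 4387 to 10866 CPM in the other 21 libraries and a summed level of 10 villus enterocyte markers of 76224 CPM against 21772 to 30718 CPM in the other 9 muscle-poor libraries. Totals ran from 13149951 to 15620744 counts, and 3 counts, taken as the floor, corresponded to 0.192 to 0.228 CPM. Reads carried no molecular identifiers, so this floor covers counting error only. A pair of GRDim water libraries of the muscle-poor class share a column name and are called unnumbered libraries a and b.

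In the genome build GRCm38 (mm10), Lgr5 (ENSMUSG00000020140) lies on chromosome 10, 115450311 to 115587780, minus strand. Olfm4 (ENSMUSG00000022026) lies on chromosome 14, 79984081 to 80023139, plus strand, and shares 153 exon bases with Gm6999 on the same strand. Ascl2 (ENSMUSG00000009248) lies on chromosome 7, 142966829 to 142969264, minus strand, and Smoc2 (ENSMUSG00000023886) on chromosome 17, 14279506 to 14404790, plus strand. Chromosome 11 holds 4 of the genes, namely Axin2 (ENSMUSG00000000142, 108920349 to 108950783, plus strand), Sox9 (ENSMUSG00000000567, 112782224 to 112787760, plus strand), Rnf43 (ENSMUSG00000034177, 87662722 to 87735539, plus strand) and Znrf3 (ENSMUSG00000041961, 5276324 to 5444847, minus strand). Axin2 shares 209 exon bases with Gm11670 on the other strand, and the strand setting of the counting is not stated. Ephb2 (ENSMUSG00000028664) lies on chromosome 4, 136647539 to 136835988, minus strand, and Ly6a (ENSMUSG00000075602) on chromosome 15, 74994877 to 74998031, minus strand. All are protein-coding. Ly6a belongs to a family of similar genes, and reads that map to more than 1 place were not counted, so that its level may be understated where its sequence is shared.

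The RefSeq promoter table of GRCm38.p6 held start sites for Olfm4, Ascl2, Axin2, Rnf43 and Ephb2. The promoters of Olfm4 and Axin2, which were lower in GRDim mice on water in the muscle-rich libraries, and of Ephb2, which was higher there, are shown over the 250 bases before the start. They are Olfm4 chr14:80000052-80000301 on the plus strand, Axin2 chr11:108920099-108920348 on the plus strand and Ephb2 chr4:136836013-136836262 on the minus strand. Capitals mark a metal response core, TGCACNC or TGCGCNC, on either strand.
Olfm4: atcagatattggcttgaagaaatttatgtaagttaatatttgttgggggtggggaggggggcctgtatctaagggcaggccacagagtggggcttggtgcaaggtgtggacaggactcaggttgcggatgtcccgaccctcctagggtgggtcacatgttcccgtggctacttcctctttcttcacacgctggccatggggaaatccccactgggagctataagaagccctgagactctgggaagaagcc
Axin2: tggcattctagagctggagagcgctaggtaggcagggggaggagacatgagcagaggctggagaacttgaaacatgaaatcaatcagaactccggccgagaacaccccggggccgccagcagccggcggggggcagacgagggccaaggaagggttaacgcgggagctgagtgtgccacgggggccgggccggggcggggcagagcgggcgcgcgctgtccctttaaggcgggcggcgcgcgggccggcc
Ephb2: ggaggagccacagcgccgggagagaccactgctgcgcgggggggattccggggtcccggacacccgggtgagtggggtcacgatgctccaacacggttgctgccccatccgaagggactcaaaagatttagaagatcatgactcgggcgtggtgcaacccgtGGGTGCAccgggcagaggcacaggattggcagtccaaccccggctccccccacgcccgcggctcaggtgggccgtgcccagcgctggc
In Ephb2, 1 metal response core began at position -88 from the start site, and 21.4% of the 32851 promoters in the table held this core within the 250 bases before the start. The other motifs searched on both strands had no match in the windows of these 5 genes. They were the TCF and LEF core (CTTTGA or CTTTGT, in 27.6% of all promoters), the interferon-gamma activated site (TTCNNNGAA, 7.02%), the interferon element core (GAAANNGAA, 7.13%) and the glucocorticoid element core (ACANNNTGT, 5.84%).

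Levels of the 10 genes were compared per length of exon, in CPM per kilobase. Among the 12 muscle-rich libraries, the order by median was Olfm4 (274 CPM per kilobase), Ly6a (40.0), Axin2 (15.97), Smoc2 (8.99), Rnf43 (5.06), Sox9 (4.66), Ascl2 (3.09), Ephb2 (2.64), Lgr5 (1.97) and Znrf3 (1.503). From Olfm4 to Rnf43, no library of a gene reached the range of its neighbour in this order. From Rnf43 down, each gene's range over the 12 libraries overlapped that of the next, so these neighbours did not differ beyond their spread. In the 9 muscle-poor libraries other than GRWT zinc replicate 3, Olfm4 was again highest (214 CPM per kilobase) and Znrf3 lowest (0.883). Ly6a varied most among libraries, with a coefficient of variation of 72.3% of its CPM over the 12 muscle-rich libraries, against 8.80% (Axin2) to 29.6% (Ascl2) for the others.

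**Figure D1:**
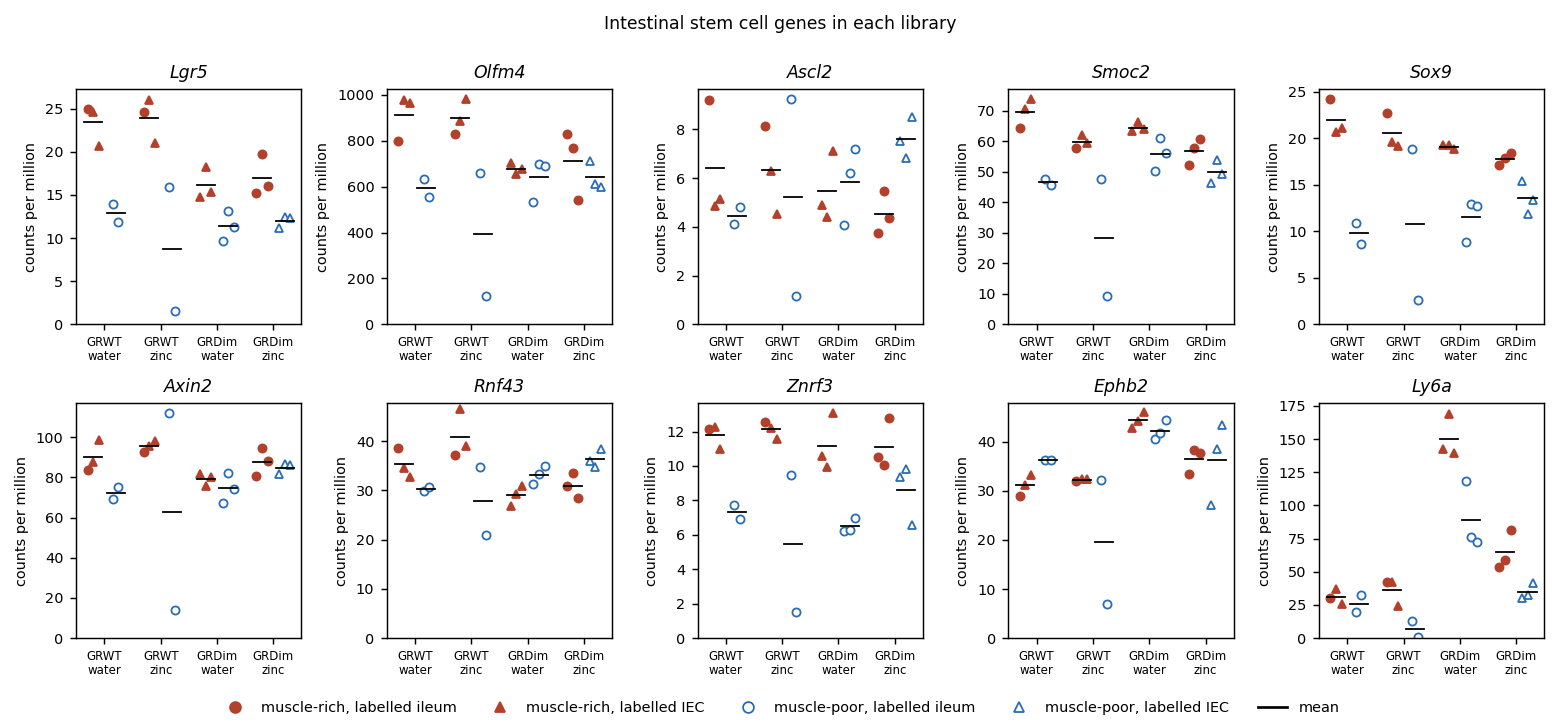
Level of each gene in each library, in CPM from 0 (vertical axis), by condition (horizontal axis), with filled red symbols for muscle-rich and open blue symbols for muscle-poor libraries, circles for the ileum label, triangles for the IEC label and bars for class means. Ly6a stands highest in GRDim mice on water in both classes, and 1 open circle of GRWT mice on zinc, replicate 3, lies below all other libraries for each gene.

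GRWT zinc replicate 3 held the lowest level of each of the 10 genes among the 22 libraries. Lgr5 stood at 1.57 CPM there, which was 12.7% of the median of the other 9 muscle-poor libraries. Olfm4 stood at 123 CPM, or 19.3% of that median, and Ly6a at 1.16 CPM, or 3.58%. Rnf43 lay closest to that median, at 20.9 CPM or 60.1%. In the same library the summed level of 10 markers of dividing cells was 213 CPM against 821 to 1023 CPM in the other muscle-poor libraries. Results of the muscle-poor class are therefore given with and without this library.

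Muscle-rich and muscle-poor libraries differed in the stem cell genes as well. Lgr5 was 1.42 to 1.82 times as high in the mean of the muscle-rich as of the muscle-poor libraries, in each of the 4 conditions and leaving out GRWT zinc replicate 3, without overlap. Sox9 was 1.09 to 2.24 times and Znrf3 1.28 to 1.72 times as high in the muscle-rich libraries, also without overlap in any condition. With that library left out, the muscle-poor side of GRWT mice on zinc is 1 library, replicate 2, which sets 1.09 for Sox9, 1.28 for Znrf3 and 2.79 for Ly6a. Smoc2 (1.14 to 1.49 times), Olfm4 (1.06 to 1.54 times) and Ly6a (1.19 to 2.79 times) were also higher in the mean of the muscle-rich libraries in each condition. The ratio lay on both sides of 1 for Ascl2 (0.594 to 1.44), Axin2 (0.851 to 1.24), Rnf43 (0.852 to 1.18) and Ephb2 (0.857 to 1.05). Rnf43 did not overlap between the classes in any condition. It was higher in the muscle-rich libraries of GRWT mice (1.16 on water, 1.18 on zinc) and lower in those of GRDim mice (0.876 and 0.852). Mki67, a protein of dividing cells, was 0.563 to 0.843 times as high in the muscle-rich libraries and the epithelial adhesion gene Epcam 0.814 to 0.944 times. The classes were set by a measured gene, so these ratios are descriptions. In such bulk samples, fewer cells of a type and less RNA per cell cannot be told apart.

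**Figure D2:**
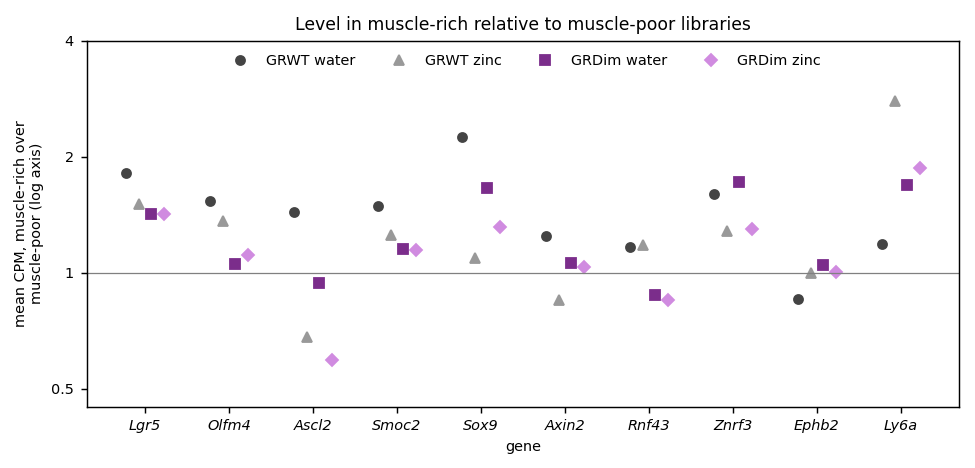
Mean CPM of the muscle-rich divided by that of the muscle-poor libraries (vertical axis, log scale with base 2) for each gene (horizontal axis) and condition (symbol), without GRWT zinc replicate 3, so that the muscle-poor side of GRWT mice on zinc is 1 library. All 4 symbols lie above 1 for Lgr5, Olfm4, Smoc2, Sox9, Znrf3 and Ly6a, from 1.06 to 2.79.

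The first comparison asked how the genes differ between GRDim and GRWT mice on plain water. In the muscle-rich libraries, 3 against 3, Lgr5, Olfm4, Axin2 and Rnf43 were lower in GRDim mice, by 0.686-fold, 0.743-fold, 0.878-fold and 0.822-fold, and Ephb2 (1.42-fold) and Ly6a (4.85-fold) were higher. Ascl2, Smoc2, Sox9 and Znrf3 did not pass. These 6 of 10 genes compare with 38.7% of all 15947 genes tested, 3148 of them higher and 3017 lower. The median log2 difference was -0.20 over the 10 genes and -0.0028 over all genes.

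Lgr5 counted 24.6, 20.7 and 25.0 CPM in GRWT water replicates 4, 5 and 1 and 14.8, 18.2 and 15.3 CPM in GRDim water replicates 4, 5 and 6. The 3 GRDim libraries lay below all 3 GRWT libraries, and the log2 difference was -0.54 ± 0.12 (SE, adjusted p = 0.00226). Olfm4 stood at 979, 964 and 798 CPM in the same GRWT libraries and at 703, 655 and 677 CPM in the GRDim ones. These groups did not overlap either, with a log2 difference of -0.43 ± 0.15 (SE, adjusted p = 0.0474). Ascl2 varied more within groups, from 4.86 to 9.20 CPM in GRWT and from 4.42 to 7.10 CPM in GRDim mice, and its log2 difference was -0.23 ± 0.28 (SE, adjusted p = 0.555). Smoc2 stood at 69.5 ± 4.84 CPM (SD, n = 3) in GRWT and 64.4 ± 1.59 CPM (SD, n = 3) in GRDim mice, with overlap between the groups and a log2 difference of -0.11 (adjusted p = 0.192). Of the 4 stem cell markers, the receptor and the most abundant marker thus passed, and the transcription factor and Smoc2 did not.

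Among the genes that dampen Wnt signalling, Axin2 counted 87.8, 98.5 and 83.7 CPM in GRWT and 81.6, 75.6 and 80.1 CPM in GRDim mice. The groups lay next to each other without overlap, and the log2 difference was -0.19 ± 0.07 (SE, adjusted p = 0.0495), close to the threshold. Rnf43 counted 34.6, 32.7 and 38.6 CPM in GRWT and 26.9, 29.2 and 31.0 CPM in GRDim mice, a log2 difference of -0.28 ± 0.10 (SE, adjusted p = 0.0406). Znrf3, the partner of Rnf43, overlapped between the groups, at 11.8 ± 0.731 and 11.2 ± 1.67 CPM (SD, n = 3 each), with a log2 difference of -0.08 (adjusted p = 0.634). Sox9 stood at 22.0 ± 1.94 CPM in GRWT and 19.1 ± 0.260 CPM in GRDim mice (SD, n = 3 each), without overlap, and missed the threshold with a log2 difference of -0.21 ± 0.08 (SE, adjusted p = 0.0616).

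Ephb2 and Ly6a went the other way. Ephb2 counted 31.3, 33.2 and 28.9 CPM in GRWT and 42.9, 44.3 and 46.0 CPM in GRDim mice, so that each GRDim library was above each GRWT library, and its log2 difference was 0.51 ± 0.07 (SE, adjusted p = 4.35e-05). Ly6a counted 36.7, 26.0 and 30.1 CPM in GRWT and 143, 169 and 139 CPM in GRDim mice. The lowest GRDim library was far above the highest GRWT library, and the log2 difference was 2.28 ± 0.23 (SE, adjusted p = 7.32e-05).

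The adjusted p-values are those of edgeR, and no label says that the libraries of a condition came from separate mice, so that they measure the spread between these libraries. Lgr5, Ephb2 and Ly6a passed in each of 12 fits that left out 1 library. The other calls were close to the threshold. Olfm4 did not pass without GRDim water replicate 4, 5 or 6, GRDim zinc replicate 2, GRWT water replicate 4 or 5, or GRWT zinc replicate 1, 4 or 5, with log2 differences of -0.51 to -0.39 over the 12 fits and an adjusted p of up to 0.128. Axin2 did not pass without GRDim water replicate 4, 5 or 6, GRDim zinc replicate 3, GRWT water replicate 4 or 5, or GRWT zinc replicate 4 (log2 differences -0.23 to -0.12, adjusted p up to 0.236), and in DESeq2 its adjusted p was 0.0805. Rnf43 did not pass without GRDim water replicate 4, 5 or 6, GRDim zinc replicate 1, or GRWT water replicate 1 or 4 (log2 differences -0.33 to -0.21, adjusted p up to 0.161), and in DESeq2 its adjusted p was 0.0624. Without GRWT water replicate 1, all libraries of this comparison carried the IEC label, and Lgr5 (-0.49), Olfm4 (-0.51), Axin2 (-0.23), Ephb2 (0.47) and Ly6a (2.26) passed. Scaled to the summed level of 10 epithelium markers, which moved the median of all genes to -0.06 and the split of all genes to 2085 higher and 3348 lower, 2 of the 10 genes were higher and 4 lower. With the tissue label as covariate the counts were also 2 and 4, with Smoc2 (-0.16, adjusted p = 0.0480) in place of Rnf43 (-0.29, adjusted p = 0.0577).

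In the muscle-poor libraries, 3 GRDim against 2 GRWT, none of the 10 genes passed on water, against 0.0288% of 13908 genes tested. Unadjusted p-values of edgeR were under 0.05 for 1 of the 10, Ly6a, and in DESeq2 none passed. Ly6a counted 19.5 and 32.5 CPM in GRWT and 119, 76.6 and 72.1 CPM in GRDim mice, the latter all above the former, with a log2 difference of 1.68 ± 0.59 (SE, adjusted p = 0.761). Without GRWT zinc replicate 3, the fit called 3.16% of 14339 genes, the log2 difference of Ly6a was 1.68 ± 0.32 (SE, adjusted p = 0.0481), and none of the other 9 genes passed. When GRWT zinc replicate 2 was left out it was 1.67 (adjusted p = 0.0486). Lgr5 stood at 13.9 and 11.9 CPM in GRWT and at 9.71, 13.1 and 11.3 CPM in GRDim mice, with overlap and a log2 difference of -0.28 (adjusted p = 0.325 without GRWT zinc replicate 3). Olfm4 overlapped too, at 634 and 554 CPM against 535, 698 and 692 CPM, and so did Axin2, at 69.4 and 75.3 against 67.1, 82.4 and 74.3 CPM. Rnf43, lower in GRDim mice in the muscle-rich class, lay the other way here without overlap. It stood at 29.9 and 30.8 CPM in GRWT and at 31.2, 33.4 and 34.9 CPM in GRDim mice. Ephb2 stood at 36.3 CPM in both GRWT libraries and at 40.6, 41.8 and 44.3 CPM in GRDim mice, above them, with a log2 difference of 0.12 (adjusted p = 0.713 without GRWT zinc replicate 3). The difference between the classes was tested as an interaction and passed for none of the 10 genes, with 1 of 10 at an unadjusted p under 0.05, Rnf43 (log2 -0.33 for muscle-rich minus muscle-poor, adjusted p = 0.412), and 3 of 10 without GRWT zinc replicate 3.

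**Figure D3:**
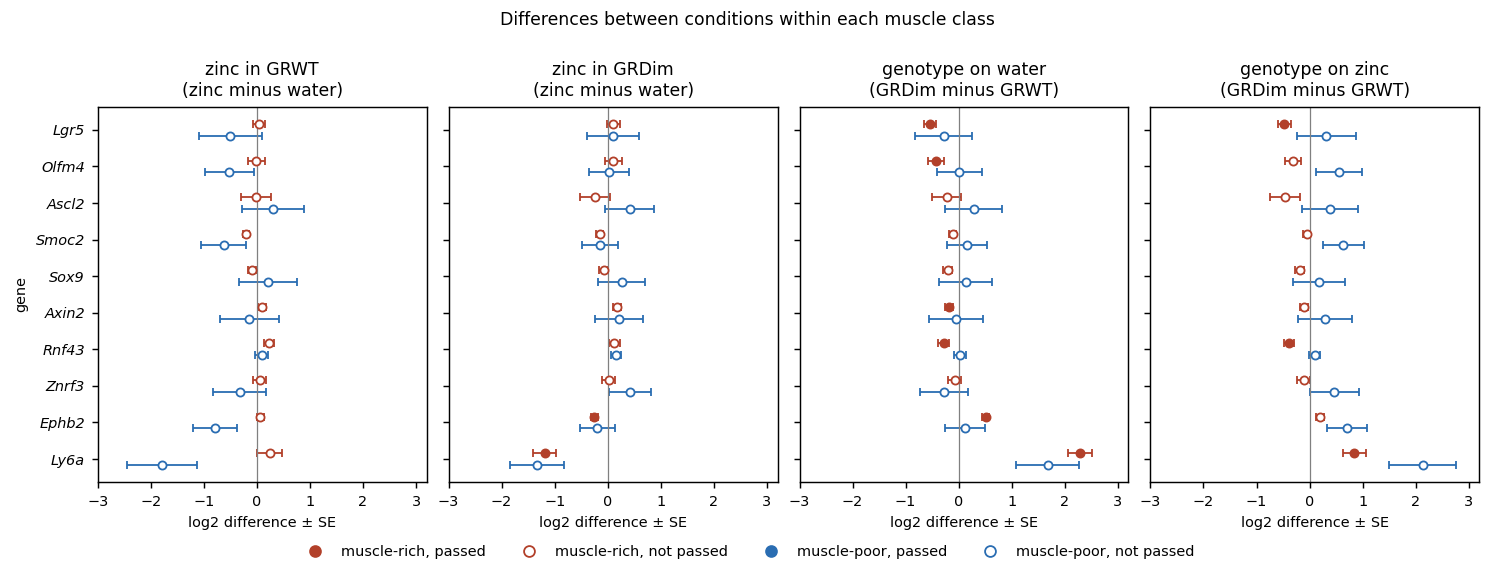
Log2 difference ± SE (horizontal axis) of each gene (vertical axis) in 4 comparisons, in red for muscle-rich and blue for muscle-poor libraries, with filled symbols where the adjusted p was under 0.05. On water, Ly6a lies at 2.28 and 1.68 in the 2 classes, and filled symbols appear only in the muscle-rich class.

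On zinc, the genotypes were compared in the same way. Within the muscle-rich class Lgr5 (0.719-fold) and Rnf43 (0.764-fold) were lower in GRDim mice and Ly6a (1.80-fold) was higher, and the other 7 genes did not pass. In all, 18.8% of the 15947 genes passed, 1564 higher and 1435 lower. Lgr5 counted 26.1, 21.0 and 24.6 CPM in GRWT zinc replicates 4, 5 and 1 and 15.3, 19.7 and 16.01 CPM in GRDim zinc replicates 1, 2 and 3, again with no overlap and with a log2 difference of -0.48 ± 0.12 (SE, adjusted p = 0.0120). Rnf43 counted 46.5, 39.1 and 37.2 CPM against 30.9, 33.6 and 28.5 CPM, a log2 difference of -0.39 ± 0.10 (SE, adjusted p = 0.0157), with all GRDim libraries below all GRWT libraries. Ly6a counted 42.1, 24.5 and 42.5 CPM against 54.0, 58.6 and 81.8 CPM, a log2 difference of 0.84 ± 0.22 (SE, adjusted p = 0.0315), also without overlap.

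Olfm4 was spread more widely on zinc, at 899 ± 78.2 CPM in GRWT and 714 ± 152 CPM in GRDim mice (SD, n = 3 each), and its groups overlapped (log2 difference -0.32, adjusted p = 0.183). Axin2 stood at 95.5 ± 2.66 against 87.8 ± 6.85 CPM, Znrf3 at 12.1 ± 0.507 against 11.1 ± 1.46 CPM, Ascl2 at 6.31 ± 1.81 against 4.52 ± 0.883 CPM and Smoc2 at 59.6 ± 2.13 against 56.9 ± 4.25 CPM (GRWT and GRDim, SD, n = 3 each), all with overlap. Sox9 (20.5 ± 1.93 against 17.8 ± 0.670 CPM, adjusted p = 0.131) and Ephb2 (32.2 ± 0.196 against 36.5 ± 2.69 CPM, adjusted p = 0.0643) did not overlap between the groups but missed the threshold.

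None of these 3 calls held in all 12 fits that left out 1 library. Lgr5 did not pass without GRDim zinc replicate 1 or 3 or GRWT zinc replicate 4 (adjusted p up to 0.0562), Rnf43 not without GRDim zinc replicate 3 or GRWT zinc replicate 4 (up to 0.0794), and Ly6a not without GRDim zinc replicate 2 or 3 or GRWT zinc replicate 5 (up to 0.1003). Scaled to the epithelium markers, all genes shifted to a median of -0.19 (585 higher, 4372 lower), and Lgr5, Olfm4, Smoc2, Axin2, Sox9 and Rnf43 passed as lower while Ly6a no longer passed (log2 difference 0.66, adjusted p = 0.0783), whereas with the tissue label as covariate Rnf43 (adjusted p = 0.0714) and Ly6a (0.127) did not pass and Lgr5 (-0.53), Ascl2 (-0.91), Sox9 (-0.32) and Ephb2 (0.27) did.

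In the muscle-poor libraries on zinc, none of the 10 genes passed, against 0.0575% of 13908 genes. All GRDim libraries here were labelled IEC and all GRWT libraries ileum, so that genotype and label cannot be told apart. With edgeR 1 of the 10, Ly6a, had an unadjusted p under 0.05, and DESeq2 called Ly6a (log2 difference 2.17, adjusted p = 0.0103). Ly6a stood at 13.1 and 1.16 CPM in GRWT zinc replicates 2 and 3 and at 30.6, 32.3 and 41.2 CPM in GRDim mice. Without replicate 3, 1 GRWT library remained, assumed to vary like the others, and the log2 difference of Ly6a was 1.37 ± 0.45 (SE, adjusted p = 0.470). Lgr5 then stood at 15.9 CPM in that library and at 11.2, 12.4 and 12.4 CPM in GRDim mice (log2 difference -0.45, adjusted p = 0.477), and Axin2 at 112 CPM against 81.6, 86.5 and 86.1 CPM (-0.45, adjusted p = 0.233). With replicate 3 in the fit, the log2 differences of Lgr5 and Axin2 were 0.31 and 0.29, on the other side of 0. Without GRWT zinc replicate 2, the other library of this group, the lone GRWT library was replicate 3 and 9 of the 10 genes passed as higher in GRDim mice, all but Rnf43.

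The effect of zinc in GRWT mice was the next comparison. In the muscle-rich libraries no gene of the 10 passed, against 0.383% of 15947 genes tested, 37 of them higher and 24 lower. Unadjusted p-values of edgeR were under 0.05 for Smoc2 and Rnf43, and DESeq2 called none. Smoc2 stood at 70.4, 73.8 and 64.3 CPM on water (replicates 4, 5 and 1) and at 61.8, 59.5 and 57.6 CPM on zinc, the zinc libraries all below the water libraries, with a log2 difference of -0.21 ± 0.06 (SE, adjusted p = 0.216). Rnf43 stood at 35.3 ± 2.98 CPM on water and 40.9 ± 4.92 CPM on zinc (SD, n = 3 each), with overlap (0.23 ± 0.10, adjusted p = 0.405). Lgr5 stood at 23.4 ± 2.36 and 23.9 ± 2.62 CPM, Olfm4 at 914 ± 101 and 899 ± 78.2 CPM and Ephb2 at 31.1 ± 2.12 and 32.2 ± 0.196 CPM (water and zinc, SD, n = 3 each), differences smaller than the spread between libraries. Ly6a stood at 30.9 ± 5.41 CPM on water and 36.4 ± 10.3 CPM on zinc (SD, n = 3 each), a log2 difference of 0.24 ± 0.23 (SE, adjusted p = 0.731).

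In the muscle-poor GRWT libraries, 2 against 2, again no gene of the 10 passed, against 0.0431% of all genes, with 1 of 10, Ly6a, at an unadjusted p of edgeR under 0.05 and none called by DESeq2. Ly6a stood at 13.1 and 1.16 CPM on zinc (replicates 2 and 3), both below the 19.5 and 32.5 CPM on water, with a log2 difference of -1.79 ± 0.66 (SE, adjusted p = 0.248). With GRWT zinc replicate 3 left out, a single zinc library, replicate 2, was set against water replicates 2 and 3, and the difference of Ly6a was -1.03 ± 0.47 (SE, adjusted p = 0.560). There Axin2 stood at 112 CPM against 69.4 and 75.3 CPM (log2 difference 0.60 ± 0.12, SE, adjusted p = 0.0718), Sox9 at 18.8 against 10.95 and 8.66 CPM (0.91 ± 0.24, adjusted p = 0.188) and Ascl2 at 9.25 against 4.11 and 4.79 CPM (1.02 ± 0.28, adjusted p = 0.212), all 3 above both water libraries. None of the 10 passed in that fit either. When GRWT zinc replicate 2 was left out instead, 9 of the 10 genes passed as lower, from -3.95 (Ly6a) to -1.34 (Sox9) on the log2 scale, and Rnf43 did not.

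In GRDim mice on zinc, Ly6a and Ephb2 were lower than in GRDim mice on water. In the muscle-rich libraries these 2 of 10 genes passed, against 7.71% of all genes, 711 of them higher and 518 lower. Ly6a stood at 143, 169 and 139 CPM on water and at 54.0, 58.6 and 81.8 CPM on zinc, a fall to 0.438-fold with no overlap (log2 difference -1.19 ± 0.21, SE, adjusted p = 0.0134). The zinc libraries of GRDim mice still lay above all 6 muscle-rich GRWT libraries, whose highest was 42.5 CPM. Ephb2 stood at 42.9, 44.3 and 46.0 CPM on water and 33.4, 38.4 and 37.7 CPM on zinc, without overlap (log2 difference -0.25 ± 0.07, SE, adjusted p = 0.0340).

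The other 8 genes did not pass. Lgr5 stood at 16.1 ± 1.86 CPM on water and 17.0 ± 2.37 CPM on zinc (SD, n = 3 each), a difference below the spread (0.11 ± 0.12, SE, adjusted p = 0.664). Olfm4 stood at 678 ± 23.6 and 714 ± 152 CPM, Rnf43 at 29.0 ± 2.04 and 31.0 ± 2.54 CPM and Axin2 at 79.1 ± 3.15 and 87.8 ± 6.85 CPM (SD, n = 3 each), with overlap in each. Smoc2, at 64.4 ± 1.59 and 56.9 ± 4.25 CPM, and Sox9, at 19.1 ± 0.260 and 17.8 ± 0.670 CPM, were lower on zinc without overlap but with adjusted p-values of 0.171 and 0.667.

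Both calls rest on few libraries. Ephb2 did not pass without any 1 of the 6 GRDim libraries (adjusted p up to 0.152), and Ly6a not without GRDim water replicate 5 or GRDim zinc replicate 1 or 2 (up to 0.0666). With the tissue label as covariate, estimated from the GRWT libraries alone, Ly6a stood at -1.32 (adjusted p = 0.113) and Ephb2 at -0.15 (0.448), and scaled to the epithelium markers, which moved the median of all genes to -0.14 and their split to 372 higher and 1704 lower, both were called and Smoc2 as well (-0.28).

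In the muscle-poor libraries, with the labels the other way round (zinc IEC, water ileum), none of the 10 genes passed, against 0.0575% of all genes, with 1 of 10 at an unadjusted p of edgeR under 0.05 and none called by DESeq2. That gene was Ly6a, at 119, 76.6 and 72.1 CPM on water and 30.6, 32.3 and 41.2 CPM on zinc, with no overlap (log2 difference -1.34 ± 0.51, SE, adjusted p = 0.577). Without GRWT zinc replicate 3 the same difference was -1.34 ± 0.27 (SE, adjusted p = 0.0439) and Ly6a passed, beside 5.15% of 14339 genes, and without GRWT zinc replicate 2 it was also -1.34 (adjusted p = 0.0453). Ephb2 overlapped in this class, at 40.6, 41.8 and 44.3 CPM on water and 27.2, 38.4 and 43.4 CPM on zinc (log2 difference -0.19, adjusted p = 0.419 without GRWT zinc replicate 3).

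Whether zinc acted differently in the genotypes was tested as an interaction. None of the 10 genes passed in either class, against 0.263% of all genes in the muscle-rich and 0% of all genes in the muscle-poor libraries. In the muscle-rich libraries, unadjusted p-values of edgeR were under 0.05 for Ly6a (log2 interaction -1.43 ± 0.32, SE, adjusted p = 0.0984) and Ephb2 (-0.32 ± 0.10, adjusted p = 0.153). Without GRDim zinc replicate 3 (-1.61, adjusted p = 0.0443) or GRWT zinc replicate 5 (-1.63, adjusted p = 0.0435) Ly6a passed, and DESeq2 called it with an adjusted p of 1.86e-05. In the muscle-poor libraries none of the 10 had an unadjusted p of edgeR under 0.05 and DESeq2 called none. The log2 interaction of Ly6a there was 0.46 ± 0.82 (SE, adjusted p = 0.840), of the other sign than in the muscle-rich libraries, and -0.31 ± 0.54 (SE, adjusted p = 0.999) with GRWT zinc replicate 3 left out. Only without GRWT zinc replicate 2, with replicate 3 as the lone GRWT zinc library, did 9 of the 10 pass there.

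Other genes of the same niche were counted in the muscle-rich libraries, from lists of pathway genes. Of 19 tested other genes of crypt-base stem cells, 6 were higher and 5 lower in GRDim mice on water, against 38.7% of all genes, with a median log2 difference of -0.04. The water channel Aqp4 (3.10-fold, adjusted p = 5.23e-06), the serine synthesis enzyme Phgdh (2.44-fold) and Rassf5 (2.30-fold) led those that were higher, and Nrn1 (0.264-fold), Pdgfa (0.646-fold) and the cell cycle kinase Cdk6 (0.688-fold) those that were lower. On zinc, 3 of the 19 were higher in GRDim mice, Aqp4 (1.91-fold), Cd44 (1.25-fold) and Prom1 (1.17-fold), and 4 lower, Nrn1 (0.369-fold), Pdgfa (0.708-fold) and Cdk6 (0.719-fold) among them, against 18.8% of all genes. Aqp4 (0.636-fold), the transcription factor Mecom (0.763-fold) and Prom1 (0.791-fold) were lower in GRDim mice on zinc than on water, 3 of 19 against 7.71% of all genes. In that comparison the tissue label goes with zinc in the muscle-rich class, and the 2 cannot be told apart within GRDim mice. With the label as covariate, estimated from the GRWT libraries alone, 0.941% of all genes and 1 of the 19, Igfbp4, passed. None of the 5 slow-cycling stem cell genes passed in any comparison in the muscle-rich libraries.

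Of 12 tested Wnt ligands and R-spondins, 5 were lower and 1 was higher in GRDim mice on water, against 38.7% of all genes, with a median log2 difference of -0.40 beside -0.0028 over all genes. Wnt3, the ligand that Paneth cells supply, was at 4.26 ± 0.657 CPM in GRWT and 1.70 ± 0.548 CPM in GRDim mice (SD, n = 3 each, 0.398-fold, adjusted p = 0.00186). Rspo1 (0.524-fold) and Wnt4 (0.573-fold) were lower too, and Wnt11 was higher (2.94-fold). With the tissue label as covariate, 3 of the 12 were lower, Wnt2b, Wnt3 and Wnt4, and Rspo1 did not pass. Of 15 Wnt receptors, 6 were lower and 1, Fzd3 (2.31-fold), higher, and of 10 tested Wnt inhibitors 5 were lower and none higher, led by Sfrp5 (0.176-fold). Sfrp5 stood at 0.363 CPM in GRDim mice, close to the floor, and at 2.12 CPM in GRWT mice. Transducers and targets of the pathway went both ways, 4 higher and 6 lower of 18. Ccnd1, which encodes cyclin D1, rose to 277 ± 14.8 CPM in GRDim from 116 ± 7.31 CPM in GRWT mice (SD, n = 3 each, 2.39-fold, adjusted p = 5.55e-09). Tcf7l2 (1.45-fold) and Bcl9 (1.44-fold) were higher too. Tcf7l1 (0.518-fold), Tgif1 (0.690-fold) and the direct Wnt target Sp5 (0.570-fold) were lower, Sp5 at 0.811 CPM in GRDim and 1.43 CPM in GRWT mice. The Wnt target Axin2, close to the threshold, was lower as well. On zinc 1 of 12 ligands (Rspo3, 0.620-fold) was lower and none was higher in GRDim mice, against 18.8% of all genes. Of 15 receptors 1 was higher there (Fzd3, 1.80-fold). Of 10 inhibitors 1 was higher and 3 lower, and of 18 transducers and targets 3 were higher and 4 lower. Between zinc and water in GRDim mice, none of the ligands, receptors or inhibitors passed, against 7.71%. Of the 18 transducers and targets, Zfp703 was higher (1.23-fold) and Ccnd1 lower (0.665-fold, adjusted p = 0.000218) with zinc.

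Pathways that act against or beside Wnt were counted as well. Of 19 Bmp pathway genes, 7 were lower and 1 was higher in GRDim mice on water, against 38.7% of all genes, the antagonist Chrdl1 (0.610-fold) among the lower ones. The inhibitory Smad6 (1.58-fold) and Smad7 (1.31-fold) and the target Id3 (1.24-fold) were higher in GRDim mice on zinc than on water, against 7.71% of all genes, and none of the 3 passed with the tissue label as covariate. Of 11 tested Notch pathway genes 2 were higher in GRDim mice on water, Notch1 (1.39-fold) and Rbpj (1.21-fold), and 2 lower, Dll4 (0.753-fold) and Atoh1 (0.793-fold), against 38.7% of all genes, and none passed between zinc and water in GRDim mice. Of 12 tested genes of regenerating and fetal-like epithelium, 1 was higher in GRDim mice on water (Ccnd2, 1.12-fold) and 4 were lower, among them the Yap targets Ccn2 (0.596-fold) and Ccn1 (0.696-fold), against 38.7% of all genes. With the tissue label as covariate the 4 passed and Ccnd2 did not. Ccn1 was the 1 gene of this list to pass between zinc and water in GRDim mice, higher on zinc (1.52-fold, adjusted p = 0.0158), and it did not pass with the covariate. In the muscle-poor libraries no gene of the crypt-base, Wnt, Bmp, Notch, regeneration or slow-cycling lists passed in the fit of 10 libraries, which called 0% to 0.0575% of all genes. Some did when GRWT zinc replicate 3 was left out. On water, against 3.16% of all genes, Aqp4, the Wnt receptor Fzd3 and Ccnd1 were higher and Fzd8 and Apc lower in GRDim mice. Between zinc and water in GRDim mice, against 5.15% of all genes, 1 of 19 crypt-base genes was lower (Cd44), 2 of 15 Wnt receptors were higher and 1 lower, 2 of 16 transducers and targets were lower (Ccnd1 and Tcf7l2), 3 of 11 regeneration genes were higher (Ccn1, Clu and Yap1), and of 15 Bmp pathway genes 1 was higher and 1 lower. Clu was higher with zinc in GRWT mice too, where the GRWT zinc group of that fit is a lone library assumed to vary like the others.

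Genes of the Ly6 family and interferon-responsive genes were counted beside Ly6a. Of the 6 tested members of the Ly6 family, 4 were higher in GRDim mice on water in the muscle-rich libraries, Ly6a, Ly6c2 (2.66-fold) and Lypd8 (1.85-fold) among them, against 38.7% of all genes. Ly6a and Lypd8 (0.758-fold) were lower in GRDim mice on zinc than on water, and neither passed with the tissue label as covariate. In the muscle-poor libraries, where the labels ran the other way, none of 4 tested members passed in the fit of 10 libraries. When GRWT zinc replicate 3 was left out, Ly6a and Ly6e were higher in GRDim mice on water (3.16% of all genes), and Ly6a, Ly6e and Lypd8 were lower in GRDim mice on zinc than on water (5.15%). In the muscle-rich libraries 16 of the 20 interferon-responsive genes were higher and none lower in GRDim mice on water, with a median log2 difference of 2.01, and 14 were lower and none higher in GRDim mice on zinc than on water, against 7.71% of all genes (median -0.52). With the tissue label as covariate 2 of the 20, Gbp2 and Irf8, were lower there (median -0.52). The GTPases Igtp (11.1-fold) and Iigp1 (9.16-fold) and the nucleic acid sensor Zbp1 (9.10-fold) rose most in GRDim mice on water. Among GRDim mice, Ifit2 stood at 0.271-fold, Cxcl10 at 0.387-fold and Cxcl9 at 0.409-fold on zinc relative to water, beside 0.438-fold for Ly6a. No interferon-responsive gene passed with zinc in GRWT mice in the fits of 12 and of 10 libraries. In the 10 muscle-poor libraries Gbp6 was higher in GRDim mice on water and on zinc (adjusted p = 0.00352 and 0.00489) and Ifit2 was lower with zinc in GRDim mice (0.156-fold, adjusted p = 0.0105), and without GRWT zinc replicate 3, 3 of 20 were higher in GRDim mice on water (3.16% of all genes passed) and 8 of 20 lower with zinc in GRDim mice (5.15%). In that fit, against a lone GRWT zinc library assumed to vary like the others, 1 of 20 was higher in GRDim mice on zinc (0.133% of all genes) and Ifit1 was lower with zinc in GRWT mice (0.202%). The summed level of the 20 genes lay between 803 and 923 CPM in GRWT and between 2445 and 2743 CPM in GRDim water libraries of the muscle-rich class, and between 1630 and 1922 CPM in GRDim zinc libraries.

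Markers of other cell types also differed between the conditions. In the muscle-rich libraries, 7 of 8 T cell markers were higher in GRDim mice on water, against 38.7% of all genes, at summed levels of 64.4 to 104 CPM in GRWT and 406 to 479 CPM in GRDim mice, and 219 to 225 CPM in GRDim mice on zinc. All of the T cell markers were detected in each class, and their part in the level of Ly6a was not tested. Of the 6 endothelium markers none passed, at summed levels of 73.8 to 112 CPM in GRWT and 85.0 to 88.1 CPM in GRDim water libraries, and in the muscle-poor libraries they summed to 2.19 to 5.26 CPM and 3 of the 6 passed the filter. Their part in the level of Ly6a was not tested. Of the 9 Paneth cell markers 7 were lower in GRDim mice on water, at 7971 to 10072 CPM in GRWT and 2850 to 3125 CPM in GRDim mice, and 7 were lower on zinc, against 18.8% of all genes. All 10 markers of dividing cells were higher in GRDim mice on water, at 558 to 676 CPM in GRWT and 969 to 1050 CPM in GRDim mice, and 7 of 10 on zinc. Villus enterocyte markers were lower, 5 of 9 tested, at 18839 to 21086 CPM in GRWT and 12147 to 12447 CPM in GRDim mice. Of the 10 smooth muscle markers 6 were lower (2492 to 2740 against 1927 to 2156 CPM), and of the 10 epithelium markers 3 were higher and 2 lower (15978 to 16189 against 16478 to 17299 CPM). Of the 4 ileal segment markers 3 were lower, with Fabp6 at 6940 to 9092 CPM in GRWT and 4387 to 5771 CPM in GRDim mice. Between zinc and water in GRDim mice, where 7.71% of all genes passed, 5 of 10 markers of dividing cells (762 to 888 CPM on zinc) and 3 of 8 T cell markers were lower, and 5 of 9 villus enterocyte markers (14512 to 17374 CPM on zinc) and 2 of 4 ileal segment markers were higher. With the tissue label as covariate, 3 of 9 villus enterocyte markers and no marker of the other 3 lists passed there. The part of these cell types in the levels of Ly6a, Lgr5, Olfm4, Axin2, Rnf43 and Ephb2 was not tested.

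**Figure D4:**
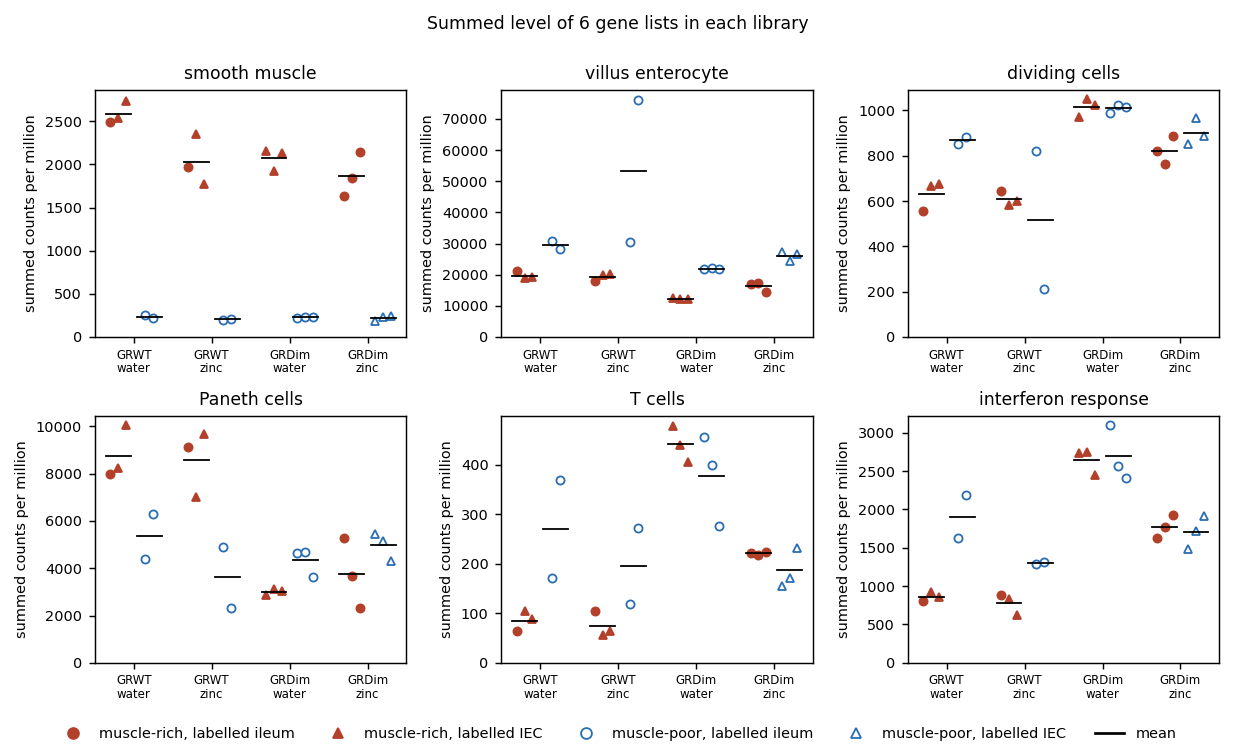
Summed CPM (vertical axis, from 0) of 6 gene lists in each library by condition (horizontal axis), with symbols as in the plot of the 10 genes. In the muscle-rich class the GRDim water libraries lie above the GRWT water libraries for dividing cells, T cells and interferon response and below them for Paneth cells and villus enterocytes, and GRWT zinc replicate 3 lies apart at 76224 CPM of villus enterocyte and 213 CPM of dividing cell markers.

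B and plasma cell markers, enteric neuron and glia markers and fibroblast markers completed the check of the muscle-rich class. On water, where 38.7% of all genes passed, 2 of 6 B and plasma cell markers were higher in GRDim mice (1463 to 1907 against 3997 to 5071 CPM). In the same comparison 4 of 7 neuron and glia markers were lower (28.9 to 33.2 against 16.9 to 22.2 CPM), and none of 6 fibroblast markers passed (786 to 1075 against 897 to 991 CPM). In the muscle-poor class no tested marker of any cell type passed in the fit of 10 libraries, which called 0% to 0.0575% of all genes. When GRWT zinc replicate 3 was left out, 3.16% of all genes passed on water. Of the markers tested there, Elf3 and Jchain were higher in GRDim mice and Anpep, Sis, Slc5a1, Ang4, Guca2a and Slc10a2 were lower. In GRDim mice on zinc, Apoa1, Defa22, Itln1, Ret and Guca2a were higher and Ccnb1 and Jchain lower than on water in that fit, against 5.15% of all genes. No T cell marker passed in it. T cell markers in this class summed to 171 and 370 CPM in GRWT and 276 to 457 CPM in GRDim mice on water, and to 156 to 233 CPM in GRDim mice on zinc, below the GRDim water libraries. Their part in the levels of Ly6a was not tested.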

How the data were processed

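RNA was extracted from ileum or scraped epithelium, and stranded single-end libraries were sequenced. The authors deposited 1 table of raw read counts per gene. According to the study's methods and the submitters' processing notes, reads were trimmed with Trimmomatic, aligned with HISAT2 2.0.4 to mm10 and counted with featureCounts, without reads that mapped to several places. The annotation release and the strand setting are not given in the sources used here. The design text also mentions dexamethasone, which no sample label names. All 22 columns were used, and 2 of them carry the same name.

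CPM are counts scaled to a library total of 1000000. Libraries with Myh11 over 100 CPM were called muscle-rich. Within each class, genes were filtered with filterByExpr, scaled by TMM and tested with edgeR 4.0.16 (quasi-likelihood F-test, R 4.3.3, limma 3.58.1), with p-values adjusted by Benjamini and Hochberg over all genes tested. A gene passed at an adjusted p under 0.05. The 10 genes and all lists were chosen with earlier results of these data known. Of each other pathway list, up to 3 genes per direction and comparison were named, those with the largest difference among genes that passed with a mean of at least 1 CPM, and 1 gene that this rule names is not reported here. Gene positions are from GENCODE and promoters from RefSeq. Alternatives were other scalings, no filter, DESeq2 1.42.0, a fold threshold, fits of all libraries with covariates, a replicate block and leaving out each library. No pair of libraries of the same condition and muscle class agreed within sampling noise. Ascl2 and Znrf3 had the lowest median CPM of the 10 genes in each class.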

Additional observations from a re-analysis of the deposited data

Results flagged for a closer look

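Of 40 groups of libraries tested (10 genes in 4 conditions, both muscle classes together), 7 held a library far from the others. The groups pool muscle classes that differ in the level of some of these genes, and 1 library gave most of the flags. The count therefore cannot be set against a rate expected by chance. In GRWT zinc replicate 3, the lowest of 5 libraries, this held for Smoc2 (9.24 CPM), Axin2 (13.9 CPM), Sox9 (2.67 CPM), Znrf3 (1.51 CPM) and Ephb2 (6.98 CPM). The other 2 were Olfm4 in GRDim water replicate 1 (535 CPM, lowest of 6) and Ascl2 in GRWT water replicate 1 (9.20 CPM, highest of 5). The causes were not tested.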

How the results depend on the processing

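Of the 11 results that passed, none reversed in 264 alternative fits and 163 of these fits still passed, while 56 of 1986 fits passed for the 89 results that had not, 3 of them with the other sign. With a log2 fold threshold of 0.8, 1 of the 10 genes passed in muscle-rich libraries for zinc in GRDim, genotype on water and genotype on zinc, against 2, 6 and 3. In 1 fit of 8 groups these counts were 0, 1 and 1, and in muscle-poor libraries 1 gene passed for zinc in GRWT and 1 for genotype on zinc, against 0. In fits of all 22 libraries, which give 1 value for both classes, 0 genes passed for zinc in GRDim, 1 for genotype on water and 1 for genotype on zinc with the class as covariate, and 0, 1 and 0 with the tissue label. Without GRWT zinc replicate 3, the fit with the class as covariate gave 1, 3 and 2, and Lgr5 for genotype on zinc, 0.31 in the muscle-poor libraries, was -0.45 (adjusted p = 0.0109). The tissue label within the muscle-rich class left 0 for zinc in GRDim, and scaling to epithelium markers gave 6 for genotype on zinc. DESeq2 called 1 gene for zinc by genotype in muscle-rich and 1 for genotype on zinc in muscle-poor libraries. Scaling the muscle-poor libraries by their totals moved the median of all genes to 0.11 (genotype on water), 0.31 (genotype on zinc), 0.20 (zinc by genotype) and -0.23 (zinc in GRWT), with 0 of the 10 genes called. The epithelium scaling, the tissue label within a class, the class difference and the 21-library fit were chosen after seeing the data, and for each the cause of a change was not tested.

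Leaving out 1 library at a time, the counts ran in muscle-rich libraries from 0 to 2 for zinc in GRDim, 3 to 5 for genotype on water, 0 to 3 for genotype on zinc and 0 to 1 for zinc by genotype. In muscle-poor libraries they ran from 0 to 9 for zinc in GRWT, genotype on zinc and zinc by genotype and from 0 to 1 for zinc in GRDim and genotype on water. The 9 came without GRWT zinc replicate 2, where Ascl2 for zinc in GRWT turned from 0.31 to -1.40 and Sox9 from 0.21 to -1.34, and without replicate 3 they stood at 1.02 and 0.91.

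Replicate numbers did not pair the libraries. Deviations of same-numbered libraries had a median correlation of -0.040 over 25 pairs against -0.045 over 124 other pairs, and 4 of 20 libraries correlated best with their own number. With the number as a replicate block, 0 of the 10 genes passed for zinc in GRDim, 1 for genotype on water, Ly6a (2.11, adjusted p = 0.0180), and 0 for genotype on zinc.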
